A study of Homo sapiens with 6 samples.

Results

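Of the nuclear genes for respiratory complexes II to V, 44 could be tested in SW1736 cells after 72 h at 2% O2. None of the 44 passed the test in either direction, which is close to the 0.74% called among all 11082 protein-coding features tested. For 34 of the 44 (77.3%) the 95% interval of the change in counts lay within 1.5-fold, against 41.8% of all features. These genes had more counts than most, which narrows the intervals. SW1736 is a line from a human anaplastic thyroid cancer, and the comparison was between cells kept at 21% O2 (normoxia, n = 3 libraries) and at 2% O2 (hypoxia, n = 3 libraries), with no other treatment in either group. The cells are 1 established line in culture, so the libraries do not sample different tumors. Genes were taken from the deposited table of protein-coding transcripts by symbol: SDHA, SDHB, SDHC, CYC1, CYCS, NDUFA4L2 and every symbol beginning UQCR, COX4 to COX8 or ATP5. This gave 51 of the 20288 genes in the table. Of these, 44 encode a subunit of complex II, III, IV or V or cytochrome c, and 7 share a symbol or a family with them (UQCRHL, NDUFA4L2, COX7A2L, ATP5L2, ATP5S, ATP5SL and the readthrough ATP5J2-PTCD1).

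The respiratory chain moves electrons from nutrients to oxygen across the inner mitochondrial membrane. Complex II (succinate dehydrogenase) passes electrons from succinate to ubiquinone, complex III hands them to the small soluble carrier cytochrome c, complex IV (cytochrome c oxidase) gives them to oxygen, and complex V (ATP synthase) uses the proton gradient to make ATP. In other cells low oxygen is known to act on complex IV through HIF-1, which can raise COX4I2 and the protease LONP1 that degrades COX4I1. Low oxygen is also known to induce NDUFA4L2, a paralog of the complex IV subunit NDUFA4.

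As the libraries were made from small RNA, each count is a short fragment that aligned to the listed transcript of a gene. Whether 2 related genes can be told apart therefore depends on their sequence, and the stretches below show the pairs for which this matters. Each stretch lies in 1 coding exon (GRCh38, GENCODE 44 transcripts), capitals mark the bases that differ between the 2 genes, and the last pair in the list has none.
COX4I2: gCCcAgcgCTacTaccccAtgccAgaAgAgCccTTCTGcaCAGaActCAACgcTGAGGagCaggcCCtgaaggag
COX4I1: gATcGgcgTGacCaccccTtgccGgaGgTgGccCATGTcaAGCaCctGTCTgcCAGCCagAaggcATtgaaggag
NDUFA4L2: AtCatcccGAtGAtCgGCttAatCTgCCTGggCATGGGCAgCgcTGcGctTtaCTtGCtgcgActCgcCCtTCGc
NDUFA4: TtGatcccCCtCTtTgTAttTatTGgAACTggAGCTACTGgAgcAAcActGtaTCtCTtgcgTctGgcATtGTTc
ATP5L2: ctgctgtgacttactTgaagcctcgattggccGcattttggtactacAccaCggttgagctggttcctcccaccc
ATP5L: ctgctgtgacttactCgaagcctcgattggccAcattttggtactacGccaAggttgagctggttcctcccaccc
UQCRHL: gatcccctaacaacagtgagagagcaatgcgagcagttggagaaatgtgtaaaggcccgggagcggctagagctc
UQCRH: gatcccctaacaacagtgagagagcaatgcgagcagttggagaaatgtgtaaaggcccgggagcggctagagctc

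The COX4I2 stretch lies at chr20:31639974-31640048 (plus strand) and the COX4I1 stretch at chr16:85804981-85805055 (plus strand), with 32 mismatches in 75 bases. Those of NDUFA4L2 (chr12:57236607-57236681, minus strand) and NDUFA4 (chr7:10938822-10938896, minus strand) had 40 mismatches in 75. No run of 25 bases of the COX4I2 or the NDUFA4L2 coding sequence occurred in the listed transcript of its partner (0 of 489 and 0 of 237), so perfect matches of 25 bases or more could be assigned to 1 gene of the pair. The retrocopy pairs were different. ATP5L2 (chr22:42640148-42640222, minus strand) and ATP5L (chr11:118406937-118407011, plus strand) differed at 4 of 75 bases, and 26.1% of the 25-base runs of ATP5L2 were also in ATP5L. UQCRHL (chr1:15807494-15807568, minus strand) and UQCRH (chr1:46310155-46310229, plus strand) were identical over the stretch, and 66.3% of the 25-base runs of UQCRHL were also in UQCRH. Counts of these 4 genes are uncertain in how they were split, as are those of ATP5J2 and the readthrough ATP5J2-PTCD1, which share 33.3% of the 25-base runs of ATP5J2.

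The libraries held 1469151 to 1781753 counts of miRNAs and protein-coding transcripts, and the 51 genes took 5939 to 7359 of them, or 0.421% to 0.507% of the protein-coding counts. Levels are given as normalized CPM, counts scaled by TMM to library size, in which 3 counts are worth 1.73 to 2.08. Of 8 tested genes known to rise in low oxygen, 6 rose and 2 did not pass the test. The hypoxic and normoxic libraries did not overlap for CA9, BNIP3, PGK1 and LDHA, with log2 fold changes of 3.67, 1.21, 0.73 and 0.72 (edgeR adjusted p = 9.39e-04, 3.71e-04, 5.57e-04 and 9.39e-04). Of 11 thyroid markers 4 had enough counts to be tested. The log2 fold changes of these 4 ran from -0.27 to 0.23, and none was called (lowest edgeR adjusted p = 0.665). All 11 summed to 183 to 228 normalized CPM in normoxia and 206 to 251 in hypoxia. Among the 11, PAX8 had 170 to 261 counts per library, while TG and TSHR had 0 to 6. Of 6 markers of other cells 3 could be tested (CD68, PECAM1 and CDH5). Their log2 fold changes ran from -0.31 to 0.75, with 1 above 0 and 2 below. None was called (lowest edgeR adjusted p = 0.501), and in 1 of them all hypoxic libraries lay above the normoxic ones. These 6 summed to 20.7 to 38.7 normalized CPM in normoxia and 27.8 to 35.7 in hypoxia. The untested PTPRC, CD3E and VWF had 1 to 9, 0 or 1 and 2 to 5 counts. The labels number the replicates without stating that each was a culture of its own, so p-values reflect only how these libraries vary, which may be technical.

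None of the 44 tested genes was higher and none was lower at an edgeR adjusted p under 0.05, against 0.74% of the 11082 protein-coding features tested (0.596% higher and 0.144% lower). At an unadjusted p under 0.05 none was higher and 1 (ATP5J2) was lower, where 10.4% of all features fell under that level (5.64% higher and 4.74% lower), and DESeq2 and limma-voom each gave the same 0 higher and 1 lower at an unadjusted p under 0.05, with 0 called. The median log2 fold change was -0.03 over the 44 genes and -0.01 over all features. The estimates were below 0 for 29 of the 44 genes (65.9%), against 51% of all features. Without hypoxia replicate 1 the median over the 44 genes was 0.07, against -0.01 over all features. With any other library left out it ran from -0.08 to -0.03 over the 44 genes. In 2 of them (4.55%) all 3 hypoxic libraries lay below all 3 normoxic ones, and in none did all 3 lie above, against 7.01% and 8.27% of all features.

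The intervals cover the change in fragment counts between these libraries, whose variation may be technical. Whether fragment counts follow the mRNA level of a gene was not tested. The paper states that how such fragments form is unknown. The 95% interval of the log2 fold change lay within a 1.5-fold change either way in 34 of the 44 genes (77.3%) and within a 2-fold change in 43 (97.7%), against 41.8% and 81.3% of all features. The genes were also more abundant than most, with a median of 73.0 normalized CPM against 30.2 over all features, and higher counts give narrower intervals. The gene whose interval reached beyond a 2-fold change was ATP5J2-PTCD1, on 7 to 18 counts per library. Across the 38 tested subunit genes, mean log2 levels in normoxia and hypoxia had a Pearson correlation of 0.99 (across genes, which are not replicates, and which share the libraries).

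**Figure D1:**
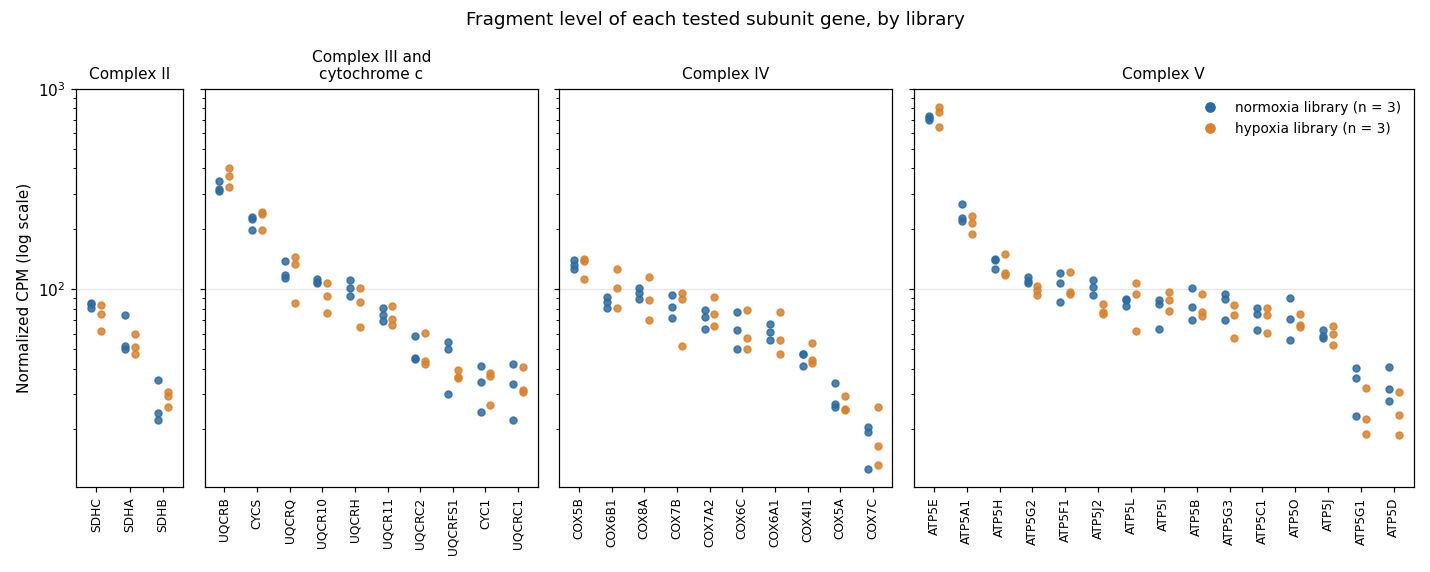
Normalized CPM (log scale) of the 38 subunit genes that passed the filter on low counts, ordered by mean level within each complex, with 1 point per library (3 normoxia, 3 hypoxia). The points of the 2 groups overlap in all but ATP5G2 and ATP5J2, where the hypoxia points lie below the normoxia points.

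**Figure D2:**
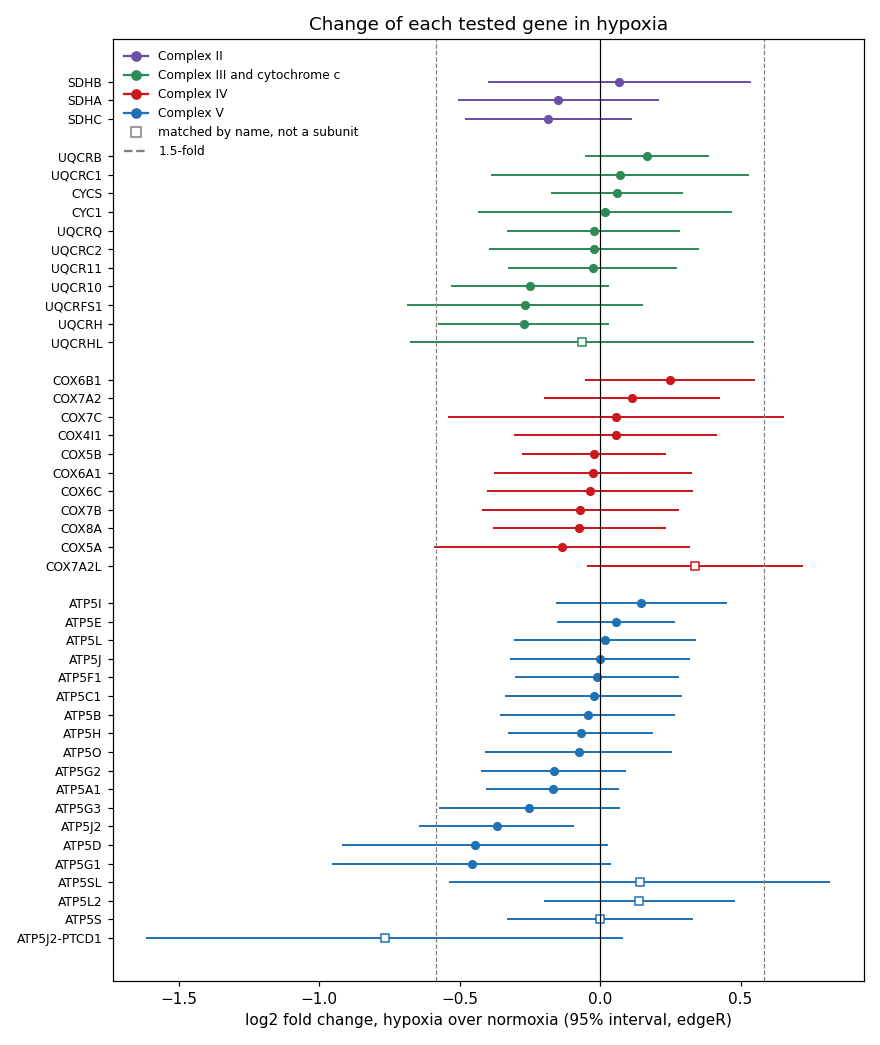
Log2 fold change, hypoxia over normoxia, of the 44 tested genes with the 95% interval from edgeR. Dashed lines mark a 1.5-fold change either way, and 34 intervals lie between them.

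Hypoxia replicate 1 stood low for these genes as a set. The sum over the 44 subunit genes was 3996, 4064 and 3856 normalized CPM in the normoxic libraries, and 3448, 4035 and 4230 in hypoxic replicates 1, 2 and 3. Of the 38 tested subunit genes, 17 had their lowest value in hypoxia replicate 1, and 13 had their highest in hypoxia replicate 3. The share of protein-coding counts on the 2019 other genes with a listed transcript of at most 1000 bases was also lowest in hypoxia replicate 1 (4.74%, against 4.90% to 5.26% in the other 5 libraries); its part in the sums was not tested. Sums are therefore given with and without that library.

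Complex II was represented by its flavoprotein SDHA, which oxidizes succinate, its iron-sulfur subunit SDHB and its membrane anchor SDHC, and the summed level was 169 ± 12.3 normalized CPM in normoxia and 155 ± 13.6 under hypoxia (SD, n = 3), with overlapping groups. SDHC had 84.2, 80.3 and 85.1 normalized CPM in normoxia and 61.9, 74.9 and 83.4 in hypoxia. The lower hypoxic mean of SDHC came from replicates 1 and 2, and replicate 3 lay within the normoxic range. SDHA had 73.9, 52.1 and 50.2 in normoxia and 51.5, 59.4 and 47.3 in hypoxia, where 1 normoxic library stood above the other 5. SDHB had 24.0, 35.3 and 22.2 in normoxia and 25.7, 30.6 and 29.2 in hypoxia. The log2 fold changes were -0.18 for SDHC (95% interval -0.48 to 0.11, edgeR adjusted p = 0.711), -0.15 for SDHA (adjusted p = 0.828) and 0.07 for SDHB (adjusted p = 0.956). Without normoxia replicate 1 the estimate for SDHA was 0.05, so its direction rested on that library. The other membrane anchor, SDHD, which lies outside the list, stood at -0.11 on the log2 scale (edgeR adjusted p = 0.886). The log2 ratio of the complex II sums was -0.13, and -0.06 without hypoxia replicate 1.

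Complex III and cytochrome c summed to 1108 ± 15.02 normalized CPM in normoxia and 1114 ± 130.4 under hypoxia (SD, n = 3), a log2 ratio of 0.01 (0.10 without hypoxia replicate 1). UQCRB, a small subunit, had 315, 310 and 345 normalized CPM in normoxia and 322, 402 and 366 in hypoxia, and made up 30.9% of the sum. It had the highest estimate in the complex, with a log2 fold change of 0.17 (95% interval -0.05 to 0.39, edgeR adjusted p = 0.624), and the groups overlapped. CYCS, cytochrome c itself, which carries electrons to complex IV and in apoptosis is released to activate caspases, had 223, 229 and 196 in normoxia and 196, 238 and 243 in hypoxia. The groups of CYCS overlapped (log2 fold change of 0.06, 95% interval -0.17 to 0.29, edgeR adjusted p = 0.904). UQCRQ, another small subunit, had 113, 118 and 138 in normoxia and 85.2, 145 and 133 in hypoxia, so its hypoxic libraries lay on both sides of the normoxic ones.

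The lowest estimates of complex III belonged to UQCRH, the hinge protein that helps cytochrome c bind, UQCRFS1, the Rieske iron-sulfur protein, and UQCR10. UQCRH had 101, 111 and 92.1 normalized CPM in normoxia and 65.0, 85.9 and 101 in hypoxia, a log2 fold change of -0.27 (95% interval -0.57 to 0.03, edgeR adjusted p = 0.541). UQCRFS1 likewise lay at -0.27 on the log2 scale (adjusted p = 0.703) and UQCR10 one of -0.25 (adjusted p = 0.542). In UQCRH and UQCR10 the lowest library was hypoxia replicate 1, and hypoxia replicate 3 lay within the normoxic range. The remaining members lay closer to 0: the core proteins UQCRC1 and UQCRC2 had log2 fold changes of 0.07 and -0.02, cytochrome c1 (CYC1) 0.02 and UQCR11 -0.03. UQCRHL had 20 to 24 counts in the libraries of normoxia and 17 to 24 in those of hypoxia, or 12.1% of the counts of the pair with UQCRH in normoxia (95% exact interval 9.45% to 15.1%) and 13.8% in hypoxia (10.8% to 17.2%).

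Complex IV held the comparison that the oxygen-responsive isoforms pose, and in these cells COX4I1 was the form detected in both conditions. COX4I1 had 73, 74 and 65 counts in the normoxic libraries and 70, 93 and 64 in the hypoxic ones. COX4I2 had 0, 0 and 2 counts in normoxia and 0, 1 and 0 in hypoxia. COX4I1 was thus present in every library at a like level, 45.4 ± 3.55 normalized CPM in normoxia and 47.0 ± 5.79 under hypoxia (SD, n = 3), with a log2 fold change of 0.05 (95% interval -0.30 to 0.41, edgeR adjusted p = 0.955), while COX4I2 was at or under the level of 3 counts in each. Summed over libraries, COX4I2 gave 2 of 214 counts of the pair in normoxia, 0.935% (95% exact interval 0.113% to 3.34%), and 1 of 228 in hypoxia, 0.439% (0.0111% to 2.42%). These intervals cover counting error only. The log2 ratio of COX4I2 to COX4I1 differed by -0.33 between hypoxia and normoxia (exact two-sided permutation test, p = 1, adjusted p = 1 over 2 ratios; the smallest p that 3 libraries against 3 allow is 0.1), on 3 counts in all and with 0.5 added to each count. A switch from COX4I1 to COX4I2 was not detectable, and a COX4I2 share above 2.42% of the pair in hypoxia lies outside the counting interval. In GRCh38, COX4I1 lies on chromosome 16 from 85798633 to 85807068 and COX4I2 on chromosome 20 from 31637912 to 31645006. LONP1, the protease, had a log2 fold change of 0.16 (95% interval -0.31 to 0.64, edgeR adjusted p = 0.866).

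NDUFA4L2 was as rare. It had 0, 0 and 1 counts in normoxia and 1, 0 and 0 in hypoxia, against 104, 109 and 112 and then 96, 133 and 79 for NDUFA4. Its share of the counts of the pair was 0.307% in normoxia (95% exact interval 0.00777% to 1.70%) and 0.324% in hypoxia (0.00819% to 1.79%). The log2 ratio differed by 0.11 (exact two-sided permutation test, p = 0.9, adjusted p = 1 over 2 ratios). NDUFA4 itself had a log2 fold change of -0.12 (95% interval -0.44 to 0.19, edgeR adjusted p = 0.843). NDUFA4L2 thus stayed at 1 count in each group, in libraries in which CA9 went from 4 counts in all to 57. NDUFA4L2 lies on chromosome 12 from 57234903 to 57240715 and NDUFA4 on chromosome 7 from 10931943 to 10940153.

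**Figure D3:**
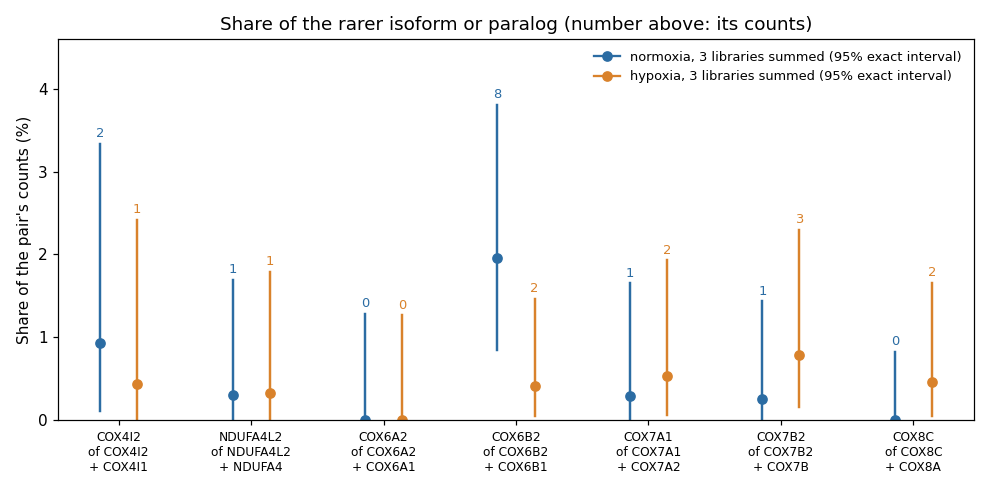
Share of the rarer isoform or paralog among the counts of its pair (%), with the 3 libraries of a group summed and 95% exact binomial intervals, and the rarer gene's counts written above. Every share is under 2% in both groups, and COX4I2 and NDUFA4L2 have 2 and 1 counts in normoxia and 1 and 1 in hypoxia.

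The tissue-restricted isoforms of complex IV were close to absent as well, and the common forms carried the counts. COX6A2 and COX7A1, the heart and muscle isoforms, had 0 and 3 counts over the 6 libraries, where COX6A1 had 576 and COX7A2 704. Taking 3 counts as the limit that a count of 0 allows, the 0 of 286 counts of the COX6A pair in normoxia allow a COX6A2 share of up to 1.05% (upper bound of the 95% exact interval 1.28%), and the 0 of 290 in hypoxia one of up to 1.03% (1.26%). COX6B2, COX7B2 and COX8C, which are best known from testis, had 10, 4 and 2 counts, where COX6B1 had 890, COX7B 761 and COX8A 877. Of the 10 counts of COX6B2, 7 were in normoxia replicate 3. These 5 genes, COX4I2 and NDUFA4L2 are the 7 that did not pass the filter on low counts.

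Over the 16 subunit genes of complex IV, the rare isoforms included, the sum was 686 ± 26.8 normalized CPM in normoxia and 696 ± 121 under hypoxia (SD, n = 3), a log2 ratio of 0.02 (0.15 without hypoxia replicate 1). COX6B1, which faces the intermembrane space near the cytochrome c site, had 86.2, 80.3 and 91.4 normalized CPM in normoxia and 80.3, 101 and 126 in hypoxia. It had the highest estimate of the complex, a log2 fold change of 0.25 (95% interval -0.05 to 0.55, edgeR adjusted p = 0.596), and hypoxia replicate 1 lay at the bottom of the normoxic range. Without that library it had the lowest p of the 44 genes, and at an unadjusted p under 0.05 there were 2 higher and 2 lower genes, none of them called (log2 fold change of 0.39, edgeR adjusted p = 0.33), and without hypoxia replicate 3 its estimate fell to 0.083 (adjusted p = 0.917). COX5B, the most abundant member, had 140, 126 and 131 in normoxia and 113, 138 and 141 in hypoxia. COX8A had 101, 89.3 and 95.2 in normoxia and 69.9, 88.2 and 115 in hypoxia. In COX5B and COX8A the hypoxic libraries lay on both sides of the normoxic ones, with log2 fold changes of -0.02 and -0.07 (edgeR adjusted p = 0.975 and 0.914). The lowest estimate was that of COX5A, with -0.14 (95% interval -0.59 to 0.32). COX6A1, COX6C, COX7A2, COX7B and COX7C had log2 fold changes of -0.07 to 0.11. COX7A2L, which takes part in joining complexes III and IV into supercomplexes and is no subunit, had 39.5, 31.5 and 45.1 in normoxia and 54.5, 50.2 and 41.7 in hypoxia, a log2 fold change of 0.34 (95% interval -0.04 to 0.72, edgeR adjusted p = 0.554).

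The lowest estimates of the subunit genes were in complex V, those of ATP5G1, ATP5D and ATP5J2, and none passed the test. Its 15 subunit genes summed to 2008 ± 60.2 normalized CPM in normoxia and 1940 ± 157 under hypoxia (SD, n = 3). The log2 ratio was -0.05 (0.01 without hypoxia replicate 1). Of the 15 estimates 12 lay below 0, against 51% of all features, and the 15 share the same libraries. The c ring, the rotor through which protons pass, is encoded by ATP5G1, ATP5G2 and ATP5G3, which make the same mature protein. The 3 genes summed to 228, 237 and 222 normalized CPM in normoxia and 197, 178 and 209 in hypoxia, so every hypoxic library lay below every normoxic one (229 ± 7.51 and 195 ± 15.7, SD, n = 3). This sum was picked out after its values were seen and is given without a test. Its log2 ratio was -0.23, and ran from -0.29 to -0.18 with any 1 library left out. ATP5G2 had 110, 107 and 116 in normoxia and 104, 98.6 and 93.8 in hypoxia, and its groups did not overlap. ATP5G3 had 94.6, 89.3 and 70.5 in normoxia and 74.2, 57.1 and 83.4 in hypoxia, and ATP5G1, with the lowest estimate of any subunit gene, 23.3, 40.5 and 36.2 and then 19, 22.5 and 32.0. In both of these the groups overlapped. The log2 fold changes were -0.46 for ATP5G1 (95% interval -0.95 to 0.04, edgeR adjusted p = 0.525), -0.25 for ATP5G3 (adjusted p = 0.61) and -0.17 for ATP5G2 (adjusted p = 0.702). No run of 25 coding bases of ATP5G1 occurred in ATP5G2 or ATP5G3, nor of ATP5G2 in ATP5G3.

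ATP5J2, a small subunit of the membrane part, came nearest to the threshold of the 44 genes. It had 103, 111 and 93.3 normalized CPM in normoxia and 75.4, 84.7 and 77.1 in hypoxia, so the groups were apart, with a log2 fold change of -0.37 (95% interval -0.64 to -0.10, edgeR unadjusted p = 0.00968 and adjusted p = 0.25). It is named here after its value was seen. ATP5J2-PTCD1, which joins ATP5J2 to the neighboring gene PTCD1 and shares sequence with it, had 16, 18 and 13 counts in normoxia and 7, 7 and 14 in hypoxia, a log2 fold change of -0.77 (95% interval -1.61 to 0.08, edgeR adjusted p = 0.541). In GRCh38, ATP5J2 (now ATP5MF) lies on chromosome 7 from 99448475 to 99466186. Among the other membrane subunits, ATP5I had the highest estimate of complex V, 0.15, with 63.5, 88.7 and 84.5 normalized CPM in normoxia and 77.8, 88.2 and 96.6 in hypoxia, and ATP5L had 0.02.

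**Figure D4:**
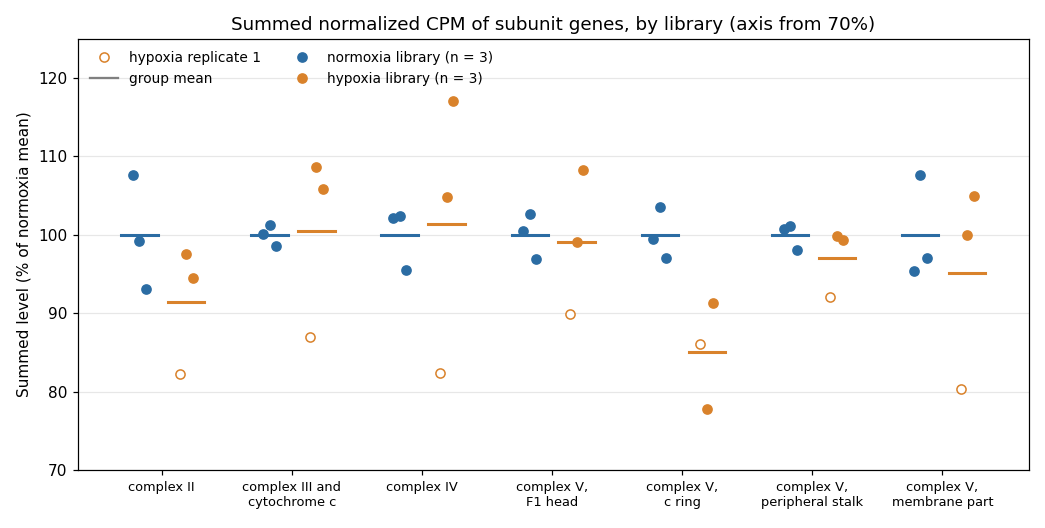
Summed normalized CPM of the subunit genes of complexes II to IV and of 4 parts of complex V in each library, as a percentage of the normoxia mean (the axis does not start at 0). Filled points are libraries, the open point is hypoxia replicate 1, bars are group means, and the groups are apart only in the c ring.

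The F1 head of complex V, which makes ATP, and its peripheral stalk lay near equality. ATP5E, the small epsilon subunit, was the most abundant of the 51 genes, with 728, 713 and 695 normalized CPM in normoxia and 644, 764 and 814 in hypoxia, and made up 36.8% of the sum of complex V. The hypoxic libraries of ATP5E lay on both sides of the normoxic ones (log2 fold change of 0.06, 95% interval -0.15 to 0.26, edgeR adjusted p = 0.899). ATP5A1, the alpha subunit, had 219, 265 and 227 in normoxia and 213, 188 and 233 in hypoxia, a log2 fold change of -0.17 (95% interval -0.40 to 0.06, edgeR adjusted p = 0.659), with overlapping groups. The catalytic beta subunit ATP5B and the gamma subunit ATP5C1 had log2 fold changes of -0.04 and -0.02. ATP5D, the delta subunit, was the head gene that lay lowest, with 40.8, 27.6 and 31.7 in normoxia and 30.6, 23.6 and 18.8 in hypoxia (log2 fold change of -0.45, 95% interval -0.92 to 0.02, edgeR adjusted p = 0.511). Its groups overlapped in 1 hypoxic library. Of the stalk, ATP5H, the most abundant, had 141, 140 and 126 in normoxia and 121, 149 and 117 in hypoxia (log2 fold change of -0.07), and ATP5F1, ATP5J and ATP5O had -0.01, 0.00 and -0.08. Without its most abundant gene, ATP5E, complex V had a log2 ratio of -0.11.

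Genes that share the symbols but are no subunits gave no call either. ATP5L2, a retrocopy of ATP5L, took 40.2% of the counts of the pair in normoxia (95% exact interval 36.5% to 44.04%) and 42.4% in hypoxia (38.7% to 46.1%). ATP5S (now DMAC2L), known as factor B of ATP synthase, and ATP5SL (now DMAC2), an assembly factor of complex I, had log2 fold changes of 0.00 and 0.14 (edgeR adjusted p = 0.999 and 0.929).

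Between genes, the order of levels depended on the length used. By the study's methods, reads on the non-coding parts of mRNAs were left out of the final analysis. Whether the deposited counts hold such reads is not stated, and the listed lengths are not of coding sequence alone. For 6 of the 49 transcripts found in GENCODE 44, the listed length was more than 1.5-fold off the length given there. Per kilobase of the listed transcript, the highest mean levels were 228 normalized CPM per kb for ATP5I, 220 for ATP5H, 198 for ATP5E, 185 for COX5B and 184 for COX8A, and the lowest among tested subunits were 5.77 for SDHC and 11.4 for COX7C. The length listed for SDHC is 13566 bases, against 1308 for the same transcript in GENCODE 44. Per kilobase of coding sequence the order was led by ATP5E with 4746, UQCRB with 1031 and CYCS with 701. Their coding sequences are 153, 333 and 315 bases, in transcripts listed at 3665, 5575 and 4098. Reads outside the coding sequence, if counted, would raise these values, which was not tested. UQCRC1 with 23.3 and SDHA with 27.96 stood at the other end. Of the 51 listed transcripts 49 were found in GENCODE 44, and 46 of the 48 that could be compared contained every 25-base run of the gene's reference coding sequence (MANE). The other 2 were COX4I1 (95.2% of the runs) and UQCRH (90.8%), and the transcript listed for UQCRH is typed as nonsense-mediated decay. The 2 transcripts not found in GENCODE 44 were those of COX6B1 and COX7B.

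The subunits that mitochondrial DNA encodes were unevenly represented. The 13 listed genes summed to 472 to 612 normalized CPM in normoxia and 451 to 523 in hypoxia. Of these, 5 were at 0 in all libraries and 5 could be tested, with none called. MT-CO2 and MT-ATP8, which encode a core subunit of complex IV and a subunit of complex V, were listed at 0 in all 6 libraries, MT-CO1 had 1 to 11 counts and MT-ATP6 4 to 17. MT-CYB, the mitochondrial subunit of complex III, had 6, 6 and 14 counts in normoxia and 12, 12 and 21 in hypoxia (log2 fold change of 0.76, edgeR adjusted p = 0.588). MT-CO3, the third core subunit of complex IV, had 75, 82 and 74 counts in normoxia and 53, 63 and 60 in hypoxia. Its hypoxic libraries all lay below the normoxic ones, and it did not pass the test (log2 fold change of -0.43, 95% interval -0.80 to -0.06, edgeR adjusted p = 0.375).

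Factors that build the complexes also gave no calls. Of 24 tested genes of complex IV assembly and copper delivery none rose and none fell at an edgeR adjusted p under 0.05. The median log2 fold change was 0.09. At an unadjusted p under 0.05, 2 were higher and none lower, where 5.64% of all features were higher and 4.74% lower. These 2, named after their values were seen, were the copper chaperones SCO1, with 63.5, 77.8 and 71.1 normalized CPM in normoxia and 88.3, 95.1 and 94.5 in hypoxia (log2 fold change of 0.39, edgeR adjusted p = 0.242), and COX19 (0.63, adjusted p = 0.293). Of 4 tested assembly factors each of complexes II (with SDHD) and III and 5 of complex V, none was called and none reached an edgeR unadjusted p under 0.05. Of 19 tested genes of mitochondrial biogenesis and turnover, 1 rose and none fell, where 0.596% of all features were called higher. The 1 that rose was the mitophagy receptor BNIP3, from 30.3 ± 5.79 to 70.4 ± 10.8 normalized CPM (SD, n = 3). PPARGC1A, the coactivator of mitochondrial biogenesis, had 8, 10 and 19 counts in normoxia and 26, 16 and 11 in hypoxia (log2 fold change of 0.47, 95% interval -0.34 to 1.28), and its estimate ran from 0.097 without hypoxia replicate 1 to 0.91 without normoxia replicate 3. Among 32 tested nuclear subunits of complex I, none was called and the median log2 fold change was -0.12. At an edgeR unadjusted p under 0.05, 2 were lower and none higher, where 4.74% of all features were lower and 5.64% higher. The medians of the subunit genes here were -0.15 for complex II, -0.02 for complex III with cytochrome c, -0.02 for complex IV and -0.07 for complex V. Whether complex I differed from these was not tested.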

How the data were processed

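Small RNA libraries of SW1736 cells were made by CATS, a ligation-independent method, and size-selected. Reads were trimmed by the authors (Cutadapt) and cleared of housekeeping small RNAs. They were aligned in turn to miRBase 22 and to GENCODE 28 transcripts (hg38) and counted with eXpress. The authors' final analysis left out pseudogenes, minor transcripts and the non-coding parts of mRNAs. Whether these were removed before the counts were deposited is not stated. The deposited values are the authors' raw counts, 1 row for each mature miRNA or each gene's listed transcript. The tables were joined, filtered with filterByExpr (11276 features left), scaled by TMM and fitted with edgeR 4.0.16 (glmQLFTest, Benjamini-Hochberg, adjusted p under 0.05). The fit was tested on simulated data. DESeq2 1.42.0, limma 3.58.1, other scalings, filters and omitted libraries were alternatives. CPM sums use all subunit genes. Intervals of shares are Clopper-Pearson. Genes were matched to GENCODE 44 by ID (51 of 51, 19 renamed). Named genes were those called, the most abundant 3, highest and lowest of each complex, isoform pairs, genes under the filter and a few context genes; values of other members account for the rest of the list and were seen before they were named. The genes and lists were chosen with earlier results of these data known. Sums over genes are given without a p-value.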

Additional observations from a re-analysis of the deposited data

How the results depend on the processing

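The count of genes of complexes II to V called higher or lower was 0 and 0 under every alternative run: other scalings, filters, DESeq2, limma-voom, the replicate block and each library left out. The lowest adjusted p ranged from 0.223 (minimum count of 20) to 0.627 (DESeq2). Of all protein-coding features, 66 were higher and 16 lower with edgeR, 34 and 4 with DESeq2, and 41 were lower with every feature of at least 1 count. With any 1 library left out the counts ran from 25 to 69 higher and from 4 to 25 lower. Replicates share numbers across groups, and the labels do not say whether same-numbered libraries were paired. No shared deviation of same-numbered libraries was seen (correlations -0.00484, 0.00345 and -0.0935). With values centered within groups of 3 libraries, this cannot exclude a pairing. With the replicate block 38 features were higher and 6 lower. With 1 library left out, log2 ratios of the sums ran from -0.18 to -0.06 for complex II, -0.06 to 0.10 for complex III with cytochrome c, -0.09 to 0.15 for complex IV and -0.11 to 0.01 for complex V. The log2 ratio of COX4I2 to COX4I1 ran from -0.75 to 0.51 and that of NDUFA4L2 to NDUFA4 from -0.45 to 0.61, as 1 to 3 counts decide them. All 44 tested genes were fitted with each library left out, but single estimates were kept only for genes chosen by the naming rule. Among those, estimates that changed sign ran from -0.061 to 0.12 for COX4I1, -0.25 to 0.050 for SDHA and -0.059 to 0.30 for SDHB. In complex III they ran from -0.0060 to 0.15 for CYCS and -0.19 to 0.18 for UQCRQ. Such estimates also ran from -0.077 to 0.070 for COX5B, -0.26 to 0.080 for COX8A and -0.015 to 0.14 for ATP5E. The same held from -0.26 to 0.12 for COX6A1, -0.015 to 0.22 for COX7A2 and -0.22 to 0.15 for COX7B. Without changing sign, estimates ran from 0.083 to 0.39 for COX6B1, -0.68 to -0.30 for ATP5G1, 0.014 to 0.24 for ATP5I and 0.097 to 0.91 for PPARGC1A, among others. The rare isoforms had 0 to 10 counts over 6 libraries, which limits what can be seen of them.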
